A study of Mus musculus with 12 samples.

Results

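Cell cycle and DNA replication genes were followed through the antiviral response of mouse embryonic fibroblasts (MEFs). The set holds 47 genes whose products license replication origins, build the replication fork, supply nucleotides, act as transcription factors, or drive and carry out mitosis. Members were chosen by symbol, from array probes whose accession maps to one of these 47 symbols. The rule itself uses no measured value, but earlier results of these data were known when members were chosen. They were read by 58 of 55681 probes, and all 47 were among the 15445 genes tested. The arrays compared wild-type MEFs with MEFs homozygous for GADD34ΔC (GADD34ΔC/ΔC, here ΔC), an allele of Ppp1r15a. GADD34, its product, brings a phosphatase to the translation factor eIF2. Cells of each genotype were either left untreated or lipofected with high molecular weight poly(I:C), a double-stranded RNA that mimics viral RNA, at 2.5 µg/ml for 6 h. Each of the 4 groups had 3 arrays, 12 in all, numbered 1 to 3 within a group, and all cells grew in the same medium with serum. No group received the lipid reagent alone. The labels do not say how many embryos or lines gave each genotype, so a difference between genotypes and a difference between lines cannot be told apart.

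Dividing cells express these genes in waves. E2F factors, held back by the retinoblastoma family until cyclin D and cyclin E kinases act, switch on licensing and replication genes as cells enter S phase. A second wave in G2 and mitosis, driven by the MuvB complex with B-MYB and FOXM1, turns on cyclin B, the mitotic kinases and spindle genes through CHR elements in their promoters. In a culture that is not synchronised, the RNA level of such a gene reflects both how many cells are in the phase and how much RNA each holds, and bulk RNA cannot tell these apart.

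Letters of both kinds of element were counted in the promoters of the members. RefSeq sequences (GRCm38.p6, from 250 bases before to 50 bases after a start) were found for 37 of 47 members, as 39 windows of 300 bases. The E2F letters searched, on both strands, were TTTCCCGC, TTTCGCGC, TTTGCCGC and TTTGGCGC, and their matches can overlap. They were in 12 of 39 member windows (30.8%) against 2.27% of all 32851 windows of the same length. The CHR letters searched on both strands, TTTGAA, were in 13 of 39 (33.3%) against 17.9%. CCAAT was in 31 of 39 (79.5%) against 37.4%. The split followed role. Of 20 windows of licensing, fork and nucleotide genes, 8 (40.0%) held E2F letters and 2 (10.0%) CHR letters, whereas of 13 windows of G2/M cyclins and mitotic genes, 1 (7.69%) held E2F letters and 10 (76.9%) CHR letters. A match is a description of letters and no evidence of a bound factor.

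**Figure D1:**
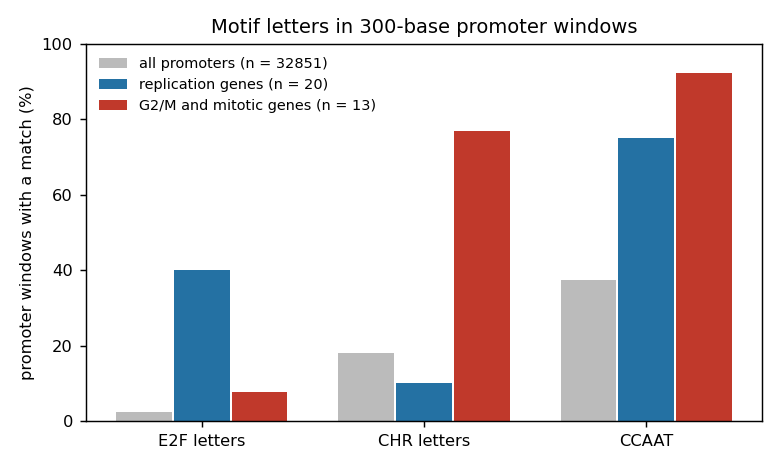
Share of 300-base RefSeq promoter windows (vertical axis, percent) that hold E2F letters, CHR letters or CCAAT, for all 32851 windows, 20 windows of replication genes and 13 windows of G2/M and mitotic genes. E2F letters are in 40.0% of the replication windows and CHR letters in 76.9% of the G2/M and mitotic windows, against 2.27% and 17.9% of all windows.

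The windows of 6 members are shown because the results below turn on Rrm2, Cdk2, E2f2 and Aurka, and because Mcm6 and Ccnb2, picked after the matches were counted, show the 2 motifs most plainly. Each reads 5′ to 3′ on the strand of the gene, with capitals marking the E2F letters (Mcm6, Cdk2, E2f2) or the CHR letters (Ccnb2, Aurka). Mcm6 is at chr1:128359656-128359955 on the minus strand and holds 3 E2F matches, of which 2 overlap. Cdk2 is at chr10:128705002-128705301 on the minus strand. The E2f2 window is at chr4:136172024-136172323 on the plus strand, and a second start of E2f2 has a window without E2F letters. Ccnb2 is at chr9:70421505-70421804 on the minus strand and holds 2 CHR matches, and Aurka is at chr2:172370521-172370820 on the minus strand. Rrm2 is at chr12:24708004-24708303 on the plus strand. It has no capitals, which says only that these letters are not in this window.
Mcm6: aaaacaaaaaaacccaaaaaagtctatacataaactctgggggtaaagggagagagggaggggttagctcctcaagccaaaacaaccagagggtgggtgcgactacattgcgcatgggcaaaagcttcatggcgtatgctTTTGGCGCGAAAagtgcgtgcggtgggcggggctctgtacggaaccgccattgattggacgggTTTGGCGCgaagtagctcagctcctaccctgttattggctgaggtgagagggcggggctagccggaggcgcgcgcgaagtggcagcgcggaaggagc
Cdk2: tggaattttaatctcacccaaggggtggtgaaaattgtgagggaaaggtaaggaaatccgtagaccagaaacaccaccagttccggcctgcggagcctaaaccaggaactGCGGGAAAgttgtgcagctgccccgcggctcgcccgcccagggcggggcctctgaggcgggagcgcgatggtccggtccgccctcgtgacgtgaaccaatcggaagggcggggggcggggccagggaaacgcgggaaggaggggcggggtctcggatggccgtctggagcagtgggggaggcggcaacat
E2f2: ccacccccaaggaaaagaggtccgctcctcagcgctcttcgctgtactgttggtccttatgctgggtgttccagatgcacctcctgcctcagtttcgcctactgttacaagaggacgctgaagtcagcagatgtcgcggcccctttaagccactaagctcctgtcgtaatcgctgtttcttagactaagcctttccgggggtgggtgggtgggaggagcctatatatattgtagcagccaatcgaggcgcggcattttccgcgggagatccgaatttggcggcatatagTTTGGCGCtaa
Rrm2: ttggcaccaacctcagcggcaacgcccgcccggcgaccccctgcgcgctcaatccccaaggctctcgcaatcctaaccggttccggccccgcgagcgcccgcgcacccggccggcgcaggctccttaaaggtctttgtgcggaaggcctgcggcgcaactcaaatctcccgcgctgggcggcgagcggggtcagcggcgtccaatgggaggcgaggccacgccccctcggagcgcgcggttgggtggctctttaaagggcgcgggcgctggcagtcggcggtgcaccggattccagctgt
Ccnb2: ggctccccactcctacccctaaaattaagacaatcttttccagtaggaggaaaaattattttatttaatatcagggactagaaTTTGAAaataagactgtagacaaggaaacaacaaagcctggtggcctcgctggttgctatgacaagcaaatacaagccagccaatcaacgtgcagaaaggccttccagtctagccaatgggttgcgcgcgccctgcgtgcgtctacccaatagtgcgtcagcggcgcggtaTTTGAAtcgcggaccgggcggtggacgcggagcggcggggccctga
Aurka: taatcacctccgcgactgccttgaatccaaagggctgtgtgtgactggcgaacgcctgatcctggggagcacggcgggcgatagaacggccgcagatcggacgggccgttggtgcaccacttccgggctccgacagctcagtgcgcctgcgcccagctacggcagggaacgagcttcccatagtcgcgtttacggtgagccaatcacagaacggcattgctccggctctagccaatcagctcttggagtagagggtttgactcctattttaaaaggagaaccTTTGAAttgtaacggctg

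Levels are log2 intensities relative to the 75th percentile of each array, so that 0 is that percentile and 1 unit is a doubling. Between 60.4% and 67.3% of probes were well above background on an array, no spot was saturated, and every member was well above background on all 12 arrays. Levels of different genes rest on different probes and are not compared. Ppp1r15a itself was at 2.62 to 3.36 in untreated and 5.79 to 5.83 in poly(I:C)-treated wild-type arrays, and at -8.30 to -4.12 in the 6 ΔC arrays. Its probe was well above background on 7 of 12 arrays, and where the probe lies relative to the deletion is not known here. Of 10 fibroblast markers, 8 were well above background on all 12 arrays and Lum on none. So were 4 of 6 leukocyte, 3 of 6 epithelial, 2 of 5 endothelial and 0 of 4 muscle markers, with Cd68 (leukocyte), Cdh5, Tek and Tie1 (endothelial) and Myog and Myh3 (muscle) on no array. The summed fibroblast markers were at 9.28 to 9.47 in untreated wild-type and 8.20 to 9.18 in untreated ΔC arrays, and at 9.13 to 9.36 and 8.27 to 9.18 with poly(I:C). The summed leukocyte markers were at 4.05 to 4.37 and 3.13 to 3.49 untreated, and at 3.59 to 3.81 and 3.24 to 3.54 with poly(I:C). The summed epithelial markers were at -0.75 to 2.30 and 0.85 to 1.92 untreated, and at -0.53 to 2.01 and 0.59 to 1.71 with poly(I:C). In untreated ΔC cells 3 fibroblast and 2 leukocyte markers were called lower, and of the epithelial markers 2 were called higher and 1 lower. After poly(I:C), 2 fibroblast markers were lower, and 1 leukocyte, 2 epithelial and 1 muscle marker were higher. Their part in the genotype differences below was not tested. The 4 arrays numbered 3 stood apart from the other 8 on the third principal component (8.52% of the variance), at -45.5 to -24.3 against 2.08 to 31.0. They were on slides 4 and 5 and scan days 2 and 3, and none was scanned on day 1. The part of slide and scan day in this was not tested. Values without the arrays numbered 3 are given beside some of the results in which such an array stands away from its group. These arrays were singled out from these same data, so p-values without them describe that fit and are no separate support for a result.

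The 6 h response to poly(I:C) left the members without a called change in either genotype. A gene is called where its adjusted p is under 0.05 in limma, a linear model fitted over all 15445 genes with Benjamini-Hochberg adjustment. In wild-type cells 0 of 47 members were called higher and 0 lower, against 5.24% and 1.53% of all genes. An unadjusted p under 0.05 was met by 8 members, against 4050 of all 15445 genes. The members' median log2 change was -0.16, against -0.14 over all genes. In ΔC cells 0 members were called in either direction, against 1.82% and 0.0194% of all genes. There 0 members had an unadjusted p under 0.05, against 1682 of all 15445 genes. The members' median there was -0.03, against -0.05. The interferon-induced gene Isg15 rose in wild-type cells by 5.64 ± 0.31 (SE; adjusted p = 6.1e-06 in limma) and in ΔC cells by 3.71 ± 0.31 (adjusted p = 0.00016), so the treatment was seen on the same arrays. For 41 members in wild type and 46 in ΔC, the 95% interval of the change lay within 2-fold in both directions, as it did for 66.5% and 72.8% of all genes.

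**Figure D2:**
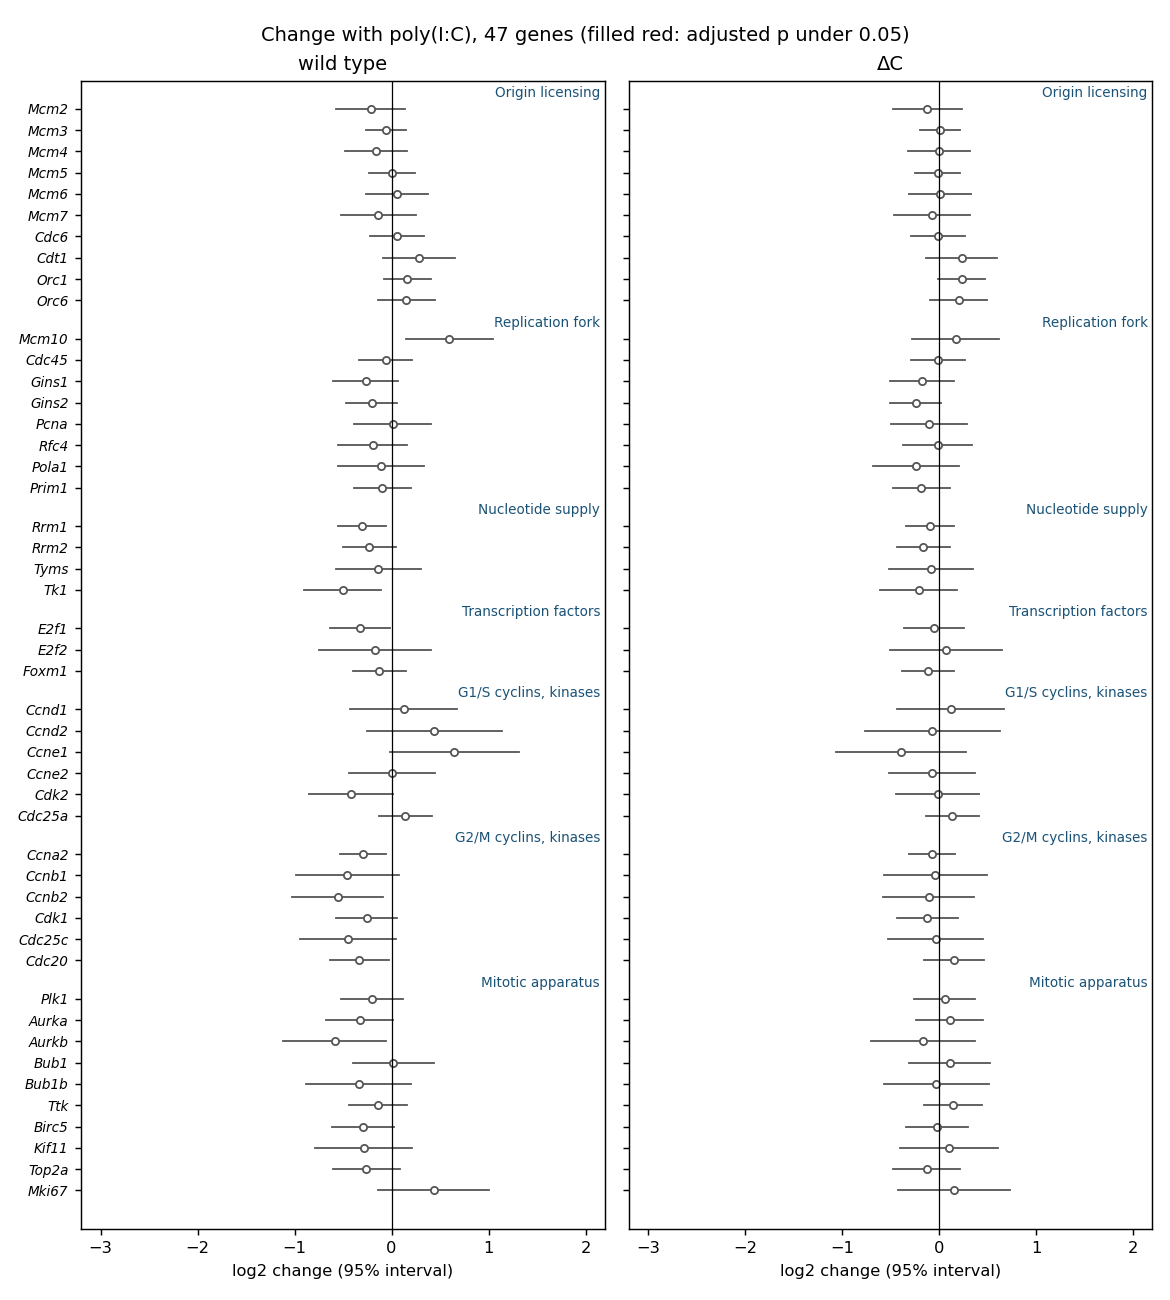
Log2 change with poly(I:C) (horizontal axis, limma estimate with its 95% interval) for each of the 47 genes, grouped by role, in wild-type and ΔC cells, 3 arrays per group. No gene is filled red (adjusted p under 0.05), and the ΔC values lie between -0.39 and 0.23.

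Between genotypes a few members differed. In untreated ΔC cells 0 members were higher and 4 lower than in wild type (Ccnd2, Rrm2, Birc5 and Aurka), against 10.9% and 10.2% of all genes. After poly(I:C), 3 members were higher (Rrm1, E2f2 and Cdk2) and 2 lower (Ccnd2 and Rrm2), against 11.9% and 9.04%. As shares of 47 these counts are at or below those backgrounds and say nothing particular about the set. The median log2 difference was -0.05 untreated and 0.01 with poly(I:C), against -0.06 and 0.01 over all genes. The comparisons use separate arrays, but same-numbered arrays deviated together (r 0.115 to 0.651 over 12 pairs), so the 2 are not independent. Ccnd2 and Rrm2 were called in both (50% of the 4 and 40% of the 5), 37 of 47 members had the same sign in both (78.7%, against 78.1% of all genes), and Pearson's r across the 47 genes, which are not independent, was 0.80 (0.87 over all genes). For the difference of the 2 responses 0 members were called in either direction, against 0.00647% and 0.0129% of all genes. An unadjusted p under 0.05 was met by 2 members (Ccne1 and Cdc20), against 836 of all 15445 genes. The interval of this difference is wider, and for 35 of 47 members it lay within 2-fold, as for 59.1% of all genes.

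**Figure D3:**
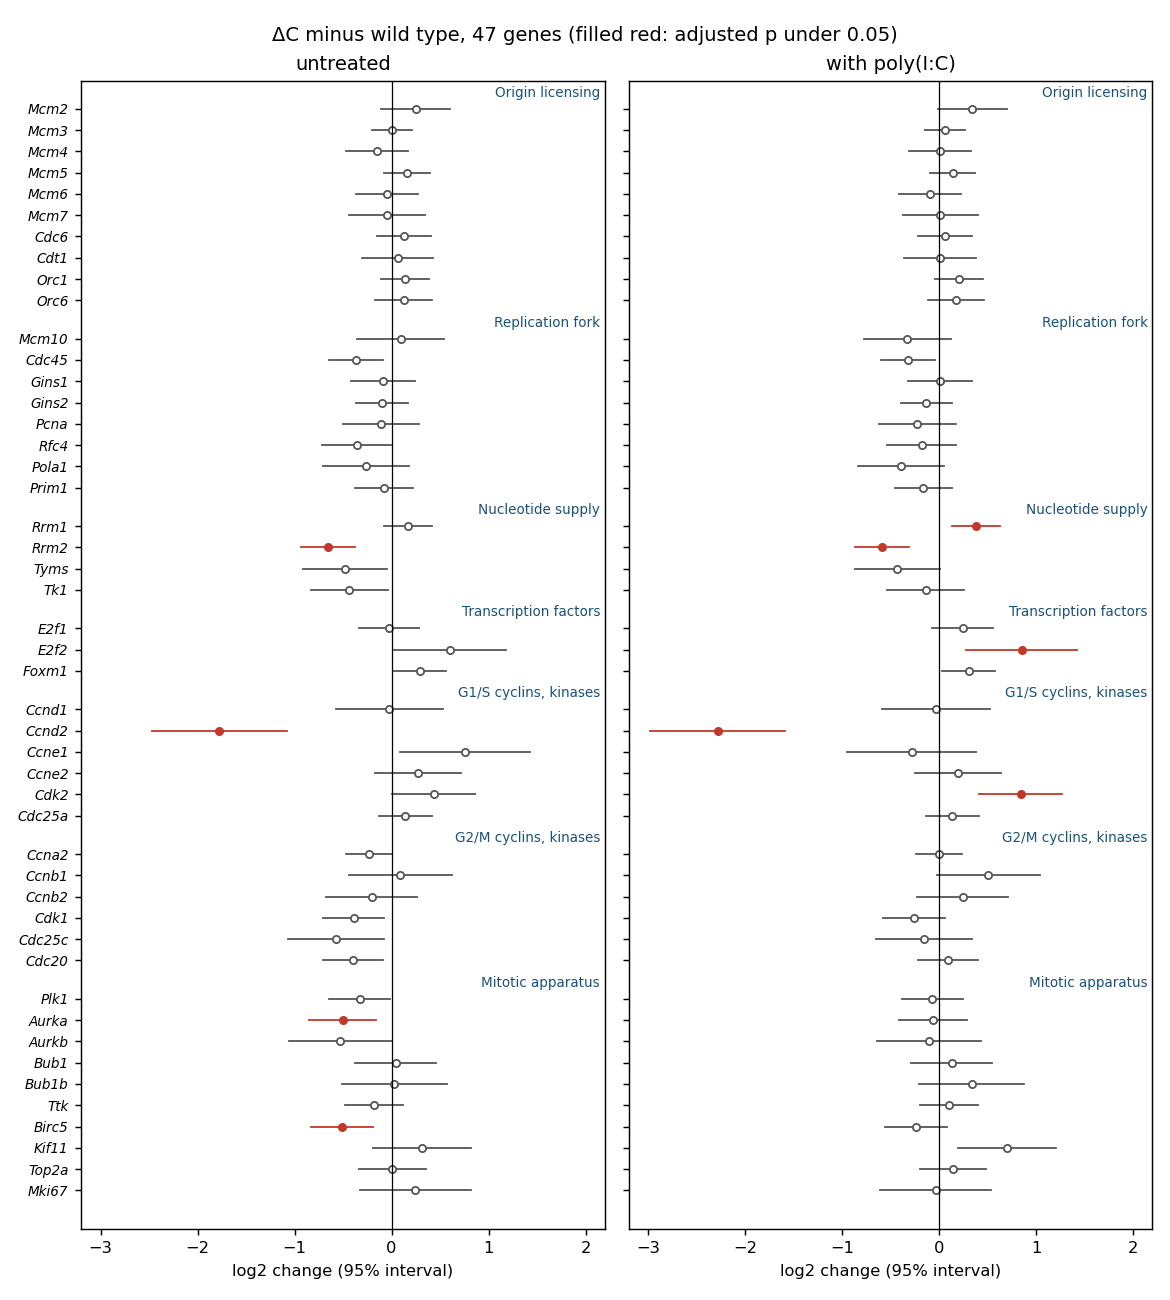
Log2 difference of ΔC minus wild type (horizontal axis, limma estimate with its 95% interval) for each of the 47 genes by role, untreated and with poly(I:C), 3 arrays per group. Filled red marks the called genes, with Ccnd2 at -1.78 and -2.28 far to the left of all others.

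The licensing genes had no called member in any comparison. Their products load the MCM helicase onto origins in G1: ORC marks the origin, CDC6 and CDT1 bring the helicase, and MCM2 to MCM7 form it. For all 10 (Mcm2, Mcm3, Mcm4, Mcm5, Mcm6, Mcm7, Cdc6, Cdt1, Orc1 and Orc6) the intervals lay within 2-fold in both responses. Without a call, Orc1 was higher without overlap in treated than in untreated wild-type arrays, Orc6 in treated than in untreated ΔC arrays and, before treatment, in ΔC against wild type, and Mcm2, Mcm5 and Orc1 were higher without overlap in treated ΔC than in treated wild-type arrays. Mcm3, the steadiest member by its SD within groups (0.058), was at 6.08, 6.21 and 6.10 in untreated wild-type arrays and 6.06, 6.04 and 6.11 with poly(I:C). In ΔC it was at 6.08, 6.20 and 6.11 untreated and 6.08, 6.20 and 6.13 treated. All 12 values lie within a band of 0.2, and the groups overlap.

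Cdt1 had the largest log2 change among licensing genes in both responses. It was at 5.72, 5.86 and 5.37 in untreated and 6.08, 6.00 and 5.71 in treated wild-type arrays, a change of 0.29 ± 0.17 (adjusted p = 0.296 in limma). In ΔC it went from 5.75, 5.86 and 5.52 to 5.84, 6.12 and 5.86 (0.23 ± 0.17, adjusted p = 0.658). The groups overlap in both genotypes. Between genotypes the largest difference was that of Mcm2, a subunit of the helicase ring. Mcm2 was at 4.34, 4.58 and 4.26 in treated wild-type and 4.71, 4.75 and 4.75 in treated ΔC arrays, 0.34 ± 0.16 higher in ΔC with groups that do not overlap, and it was not called (adjusted p = 0.160). Untreated, it was at 4.66, 4.88 and 4.28 against 4.85, 5.01 and 4.72 (0.25 ± 0.16, adjusted p = 0.297), and these groups overlap.

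At the fork, 0 of 8 genes were called, and Mcm10 gave the largest response. MCM10 helps the loaded helicase start, CDC45 and GINS (Gins1, Gins2) join it, Pola1 and Prim1 encode the primer-making polymerase, and Pcna and Rfc4 the sliding clamp and part of its loader. Mcm10 was at 4.09, 4.03 and 3.97 in untreated and 4.82, 4.80 and 4.26 in treated wild-type arrays. Every treated array is above every untreated one, and array 3 is the lowest of the treated. The log2 change was 0.60 ± 0.20 (1.51-fold, adjusted p = 0.0992 in limma), and it passed once replicate numbers were fitted as a block (adjusted p = 0.0243). In ΔC the values were 4.18, 4.37 and 3.82 untreated and 4.45, 4.46 and 3.98 treated, an overlapping 0.17 ± 0.20 (adjusted p = 0.803). The difference between the responses, -0.43 ± 0.28, was not called (adjusted p = 0.987).

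Cdc45 was lower in all 3 untreated ΔC arrays (0.43, 0.66 and 0.52) than in any untreated wild-type array (0.98, 1.02 and 0.71), by -0.37 ± 0.12, and was not called (adjusted p = 0.0610 in limma). In treated cells it was at 0.92, 0.88 and 0.73 in wild type and 0.41, 0.55 and 0.62 in ΔC, again without overlap (-0.32 ± 0.12, adjusted p = 0.0954). Pola1 had the largest difference with poly(I:C), at 3.29, 3.11 and 3.11 in wild type against 2.98, 3.07 and 2.29 in ΔC (-0.39 ± 0.20, adjusted p = 0.197), where ΔC array 3 is far below the rest. Without the arrays numbered 3 the difference was -0.18 ± 0.15 (adjusted p = 0.381). In the ΔC response the largest change was that of Gins2, from 3.76, 3.85 and 3.72 to 3.38, 3.57 and 3.66 (-0.24 ± 0.12, adjusted p = 0.504), without overlap. The log2 changes of Gins1, Pcna, Rfc4 and Prim1 lay between -0.27 and 0.01 in wild type and between -0.18 and -0.01 in ΔC.

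The nucleotide genes split between the 2 subunits of ribonucleotide reductase, the enzyme that makes deoxyribonucleotides. Rrm2, its small subunit, which is made in S phase, was at 5.71, 5.77 and 5.58 in untreated wild-type and 4.93, 5.25 and 4.90 in untreated ΔC arrays. All ΔC values are below all wild-type values, by 0.66 ± 0.12 (1.58-fold lower, adjusted p = 0.0049 in limma). In treated cells it was at 5.51, 5.50 and 5.36 in wild type and 4.86, 4.98 and 4.76 in ΔC, 1.51-fold lower (-0.59 ± 0.12, adjusted p = 0.0083), again without overlap. Rrm2 was lower in ΔC within 1 slide (-0.52 untreated and -0.66 treated, 2 arrays each) and within 1 scan day (-0.68 and -0.65, 3 arrays each). With the slide as a block the adjusted p was 0.0673 untreated and 0.0713 treated, and with the scan day 0.0363 and 0.0413.

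Rrm1, the large subunit, was at 4.74, 4.80 and 4.77 in treated wild-type and 5.03, 5.20 and 5.22 in treated ΔC arrays. It was higher in ΔC by 0.38 ± 0.11 (1.30-fold, adjusted p = 0.0369 in limma) with no overlap, the opposite direction to Rrm2. Untreated it was at 5.13, 5.21 and 4.88 against 5.18, 5.28 and 5.27, and these groups overlap (0.17 ± 0.11, adjusted p = 0.309). The Rrm1 call was lost without any 1 of 7 arrays: treated wild-type 1, 2 or 3 (adjusted p = 0.118, 0.0965 and 0.0636), untreated ΔC 1 or 2 (0.0518 and 0.0572) and treated ΔC 2 or 3 (0.113 and 0.0859). Within 1 slide and 1 scan day its difference was 0.29 and 0.27, and the adjusted p was 0.180 with the slide and 0.129 with the scan day as a block.

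Tk1, a thymidine kinase, gave the largest response of the 4 nucleotide genes. It was at 5.66, 5.64 and 5.71 in untreated and 5.02, 5.11 and 5.37 in treated wild-type arrays. The groups do not overlap, the log2 change was -0.51 ± 0.18, and it was not called (adjusted p = 0.112 in limma). In ΔC the change was -0.21 ± 0.18 (adjusted p = 0.718), from 5.21, 5.10 and 5.40 to 4.71, 4.94 and 5.43, which overlap. Untreated ΔC was below wild type for Tk1 (-0.43 ± 0.18, adjusted p = 0.114) and for Tyms, the thymidylate synthase (-0.48 ± 0.20, adjusted p = 0.109), and both passed with the replicate block (adjusted p = 0.0410 and 0.0421).

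Of the transcription factors E2f2 was higher in ΔC. E2F1 and E2F2 activate S phase genes, and FOXM1 activates genes of G2 and mitosis. E2f2 was at 1.73, 1.67 and 1.67 in treated wild-type and 2.72, 2.78 and 2.12 in treated ΔC arrays. The groups do not overlap, array 3 is the lowest of ΔC, and the difference was 0.85 ± 0.26 (1.80-fold, adjusted p = 0.0418 in limma). Untreated, it was at 2.07, 1.87 and 1.64 against 2.73, 2.81 and 1.86, which overlap through ΔC array 3 (0.61 ± 0.26, adjusted p = 0.126, and 0.0384 with the replicate block). Without the arrays numbered 3 it was 0.80 ± 0.10 (adjusted p = 0.0024). The call with poly(I:C) was lost without untreated wild-type array 1 or 2 (adjusted p = 0.0518 and 0.0577), treated wild-type array 1, 2 or 3 (0.103, 0.114 and 0.0786) or treated ΔC array 1 or 2 (0.129 and 0.137). Within 1 slide and 1 scan day it was 0.99 and 1.02, and the adjusted p was 0.240 with the slide and 0.128 with the scan day as a block.

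E2f1 was at 3.58, 3.48 and 3.46 in untreated and 3.29, 3.05 and 3.21 in treated wild-type arrays (-0.32 ± 0.14, adjusted p = 0.175 in limma), without overlap. In ΔC it went from 3.44, 3.39 and 3.61 to 3.17, 3.43 and 3.68, which overlap. Foxm1 was higher in ΔC by 0.29 ± 0.12 untreated (adjusted p = 0.115) and 0.30 ± 0.12 with poly(I:C) (adjusted p = 0.104), with no overlap in either. In the ΔC response it had the largest change of the 3 factors, from 3.54, 3.68 and 3.62 to 3.51, 3.33 and 3.66 (-0.11 ± 0.12, adjusted p = 0.779), and the groups overlap.

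Cyclin D2 set the largest difference of the whole set. Cyclins D1 and D2 carry growth signals to CDK4 and CDK6, cyclin E activates CDK2 at the start of S phase, and CDC25A removes inhibitory phosphates from CDK2. Ccnd2 was at 3.09, 3.15 and 2.85 in untreated wild-type and 1.46, 1.24 and 1.06 in untreated ΔC arrays. After treatment it was at 3.88, 3.82 and 2.71 in wild type and 1.53, 1.33 and 0.69 in ΔC. Every ΔC array is more than 1 unit below every wild-type array. The difference was -1.78 ± 0.31 untreated (3.42-fold lower, adjusted p = 0.0034 in limma) and -2.28 ± 0.31 with poly(I:C) (4.87-fold lower, adjusted p = 0.0009).

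Ccnd2 was also the one member called in both genotype comparisons under all 23 other settings, with differences of -1.89 to -1.68 untreated and -2.67 to -2.04 treated. Within 1 slide it was -1.91 and -2.35, and within 1 scan day -1.79 and -2.32. The adjusted p was 0.0189 and 0.0112 with the slide as a block and 0.0084 and 0.0035 with the scan day in limma. Ccnd1 did not show such a gap. It was at 3.87, 4.36 and 4.34 in untreated wild-type and 4.12, 4.50 and 3.88 in untreated ΔC arrays, a difference of -0.02 ± 0.25 (adjusted p = 0.955).

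Cdk2, the kinase of cyclins E and A, was higher in ΔC with poly(I:C). It was at 0.28, 0.49 and 0.94 in treated wild-type and 1.31, 1.65 and 1.28 in treated ΔC arrays, a difference of 0.84 ± 0.19 (1.79-fold, adjusted p = 0.0128 in limma) without overlap. Untreated it was at 0.78, 0.98 and 1.21 against 1.46, 1.59 and 1.23, again without overlap, with array 3 of each group nearly level (0.44 ± 0.19, adjusted p = 0.138, and 0.64 ± 0.15 with adjusted p = 0.0213 without the arrays numbered 3). The call was lost without treated wild-type array 1 or 2 (adjusted p = 0.0583 and 0.0536) or treated ΔC array 2 (0.0537). Within 1 slide and 1 scan day the difference was 1.03 and 0.93, and the adjusted p was 0.154 with the slide and 0.0808 with the scan day as a block.

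Ccne1 had opposite signs in the 2 responses. It was at 3.05, 3.19 and 3.11 in untreated and 4.14, 4.15 and 3.00 in treated wild-type arrays, where arrays 1 and 2 are about 1 unit up and array 3 is not. The log2 change was 0.65 ± 0.30 (adjusted p = 0.202 in limma). In ΔC it was at 3.79, 3.71 and 4.12 untreated and 3.36, 3.18 and 3.91 treated, lower in each numbered pair with overlapping groups (-0.39 ± 0.30, adjusted p = 0.680). The difference between the responses was -1.04 ± 0.42 (adjusted p = 0.848). Its other probe gave 0.87 and -0.42 in the 2 responses. Without the 4 arrays numbered 3, Ccne1 rose in wild type by 1.02 ± 0.10 (adjusted p = 0.0013), fell in ΔC by 0.48 ± 0.10 (adjusted p = 0.0343), and was the 1 member whose responses differed (-1.51 ± 0.15, adjusted p = 0.0075). That fit called 0.609% of all genes higher and 2.33% lower for the difference, and had 2 arrays per group. It leaves out the treated wild-type array on which Ccne1 stood apart, so its p-values are no separate support. The Ccne2 and Cdc25a changes lay between -0.08 and 0.14 in both responses.

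**Figure D4:**
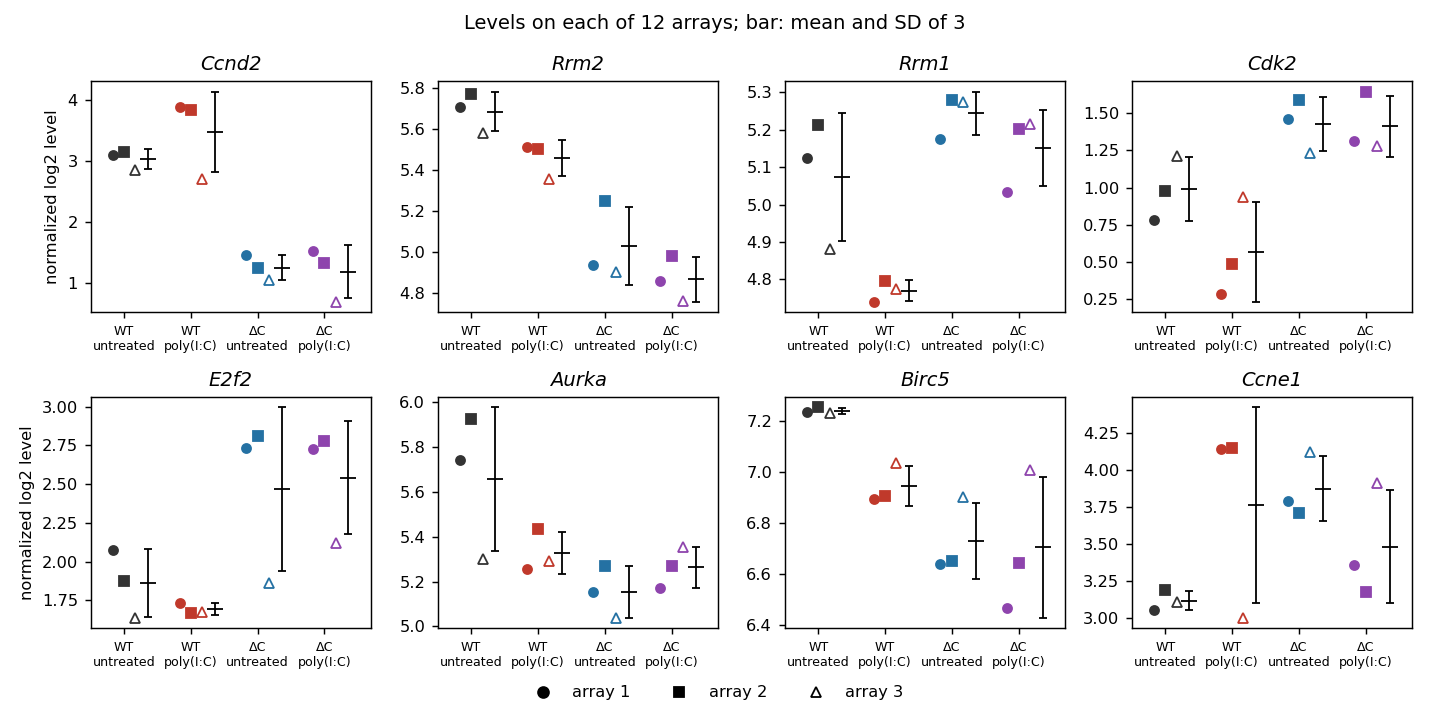
Level on each of the 12 arrays (vertical axis, log2 relative to the 75th percentile of the array) for 8 genes, with circles, squares and open triangles for arrays 1, 2 and 3 and the bar for the mean and SD of the 3 arrays. The ΔC values of Ccnd2 and Rrm2 lie below all wild-type values, and array 3 of treated wild type stands away from arrays 1 and 2 for Ccnd2 and Ccne1.

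The 6 G2/M cyclins and kinases had no called member in any comparison. Cyclins A2, B1 and B2 drive CDK1 into mitosis, CDC25C activates CDK1, and CDC20 turns on the ubiquitin ligase that ends mitosis. In the wild-type response all 6 had a log2 change below 0, as had 10015 of all 15445 genes. Their median was -0.39, against -0.14 over all genes. Ccnb2 had the largest, from 5.63, 5.71 and 4.86 untreated to 4.81, 4.90 and 4.82 treated (-0.56 ± 0.21, adjusted p = 0.132 in limma). Here the untreated array 3 is already at the treated level, so the groups overlap. In ΔC Ccnb2 was at 5.20, 5.39 and 5.02 untreated and 4.95, 5.03 and 5.29 treated, a change of -0.11 ± 0.21 (adjusted p = 0.890).

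Cdc20 was at 6.21, 6.11 and 6.12 in untreated and 5.64, 5.79 and 6.02 in treated wild-type arrays, without overlap (-0.33 ± 0.14, adjusted p = 0.163 in limma). In ΔC it was at 5.67, 5.81 and 5.79 untreated and 5.73, 5.85 and 6.16 treated (0.16 ± 0.14, adjusted p = 0.730), which overlap. Its untreated level was lower in ΔC without overlap (-0.39 ± 0.14, adjusted p = 0.0701, and 0.0429 with the replicate block). Cdc25c had the largest untreated difference of the 6, at 1.14, 1.23 and 0.35 in wild type against 0.50, 0.49 and 0.00 in ΔC (-0.57 ± 0.22, adjusted p = 0.0950). The groups overlap through wild-type array 3, and without the arrays numbered 3 the difference was -0.69 ± 0.09 (adjusted p = 0.0028). Among treated arrays the largest was Ccnb1, at 4.57, 4.72 and 4.47 in wild type against 5.19, 5.12 and 4.97 in ΔC (0.51 ± 0.24, adjusted p = 0.163, and 0.0446 with the replicate block), without overlap.

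Among the 10 genes of the mitotic apparatus, Aurka and Birc5 were lower in untreated ΔC cells. Aurora A builds the spindle poles, and Birc5 encodes survivin, which holds Aurora B (Aurkb) at centromeres. Aurka was at 5.74, 5.93 and 5.30 in wild type and 5.15, 5.27 and 5.04 in ΔC (-0.50 ± 0.16, 1.42-fold lower, adjusted p = 0.0445 in limma). The groups do not overlap, and wild-type array 3 is just above the highest ΔC array. Treated groups overlap, at 5.26, 5.44 and 5.29 against 5.17, 5.27 and 5.35 (-0.06 ± 0.16, adjusted p = 0.815). The untreated call held without untreated wild-type array 3 (adjusted p = 0.0056) and was lost without any 1 of the other 11 arrays, at an adjusted p of 0.0516 to 0.132. Within 1 slide and 1 scan day the difference was -0.65 and -0.71, and the adjusted p was 0.215 and 0.129 with those as blocks.

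Birc5 was at 7.24, 7.25 and 7.23 in untreated wild-type arrays and 6.64, 6.65 and 6.90 in untreated ΔC arrays. Without overlap, ΔC was 1.42-fold lower (-0.51 ± 0.14, adjusted p = 0.0305 in limma). The 3 probes of Birc5 gave -0.51, -0.53 and -0.46. In limma fitted to all kept probes their adjusted p was 0.0455, 0.0662 and 0.0633, so only the brightest probe passed. In treated arrays it was at 6.89, 6.91 and 7.04 against 6.47, 6.64 and 7.01, which overlap (-0.24 ± 0.14, adjusted p = 0.273). The call was lost without untreated wild-type array 1, 2 or 3 (adjusted p = 0.0776, 0.0721 and 0.0573) or untreated ΔC array 1 or 2 (0.108 and 0.109). Within 1 slide and 1 scan day it was -0.60 and -0.61, and the adjusted p was 0.236 and 0.117 with those as blocks.

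The other mitotic genes were not called. PLK1, BUB1, BUBR1 (Bub1b) and TTK act in spindle assembly and its checkpoint, Kif11 encodes a spindle motor, Top2a a DNA topoisomerase, and Mki67 the proliferation marker Ki-67. Aurkb had the largest wild-type response, from 1.23, 0.90 and 0.38 to -0.02, 0.16 and 0.62 (-0.59 ± 0.24, adjusted p = 0.156 in limma), and its arrays 3 run the other way, so the groups overlap. In ΔC it went from 0.11, 0.31 and 0.51 to -0.11, 0.19 and 0.34 (-0.17 ± 0.24, adjusted p = 0.847). Kif11 had the largest difference with poly(I:C), at 1.37, 1.39 and 1.42 in wild type against 2.36, 2.10 and 1.82 in ΔC (0.70 ± 0.23, adjusted p = 0.0525, and 0.0136 with the replicate block), without overlap. In the wild-type response 8 of the 10 mitotic genes were below 0 and 2, Mki67 and Bub1, above. Mki67 was at 0.43 ± 0.26 (adjusted p = 0.306 in limma), with untreated values of 4.10, 4.90 and 3.80 and treated values of 4.90, 4.89 and 4.32. These groups overlap, and the changes of Mki67 in the numbered pairs were 0.80, -0.02 and 0.52.

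The numbered pairs of arrays differed in the wild-type response, and pair number is mixed with slide and scan day. The untreated and treated arrays of pair 2 shared slide 2 and scan day 1. Those of pair 1 were on slides 4 and 1 (scan days 2 and 1), and those of pair 3 on slides 4 and 5 (scan days 2 and 3). The part of slide and scan day in the differences between pairs was not tested. In pairs 1 and 2 the median change of the 6 G2/M genes was -0.62 and -0.57 and in pair 3 it was -0.05. For the 10 mitotic genes it was -0.37, -0.41 and 0.10, against -0.19, -0.13 and -0.04 over all genes. All 6 G2/M genes were below 0 in pairs 1 and 2 and 4 of 6 in pair 3. Of the mitotic genes 8, 10 and 4 of 10 were below 0. Of all genes 63.0%, 61.5% and 56.1% were below 0 in pairs 1, 2 and 3. In ΔC the G2/M medians were -0.16, -0.10 and 0.28, and the mitotic medians -0.05, -0.00 and 0.17, against -0.04, -0.08 and -0.02 over all genes. The log2 change of Isg15 in the wild-type pairs was 5.77, 6.00 and 5.15, and that of Ifit1, another interferon-induced gene, 9.90, 8.21 and 7.48, lowest in pair 3 for both. Untreated wild-type array 3 lay below the mean of its group by a median of 0.35 for G2/M genes and 0.31 for mitotic genes. Over all genes it lay above that mean by a median of 0.02.

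**Figure D5:**
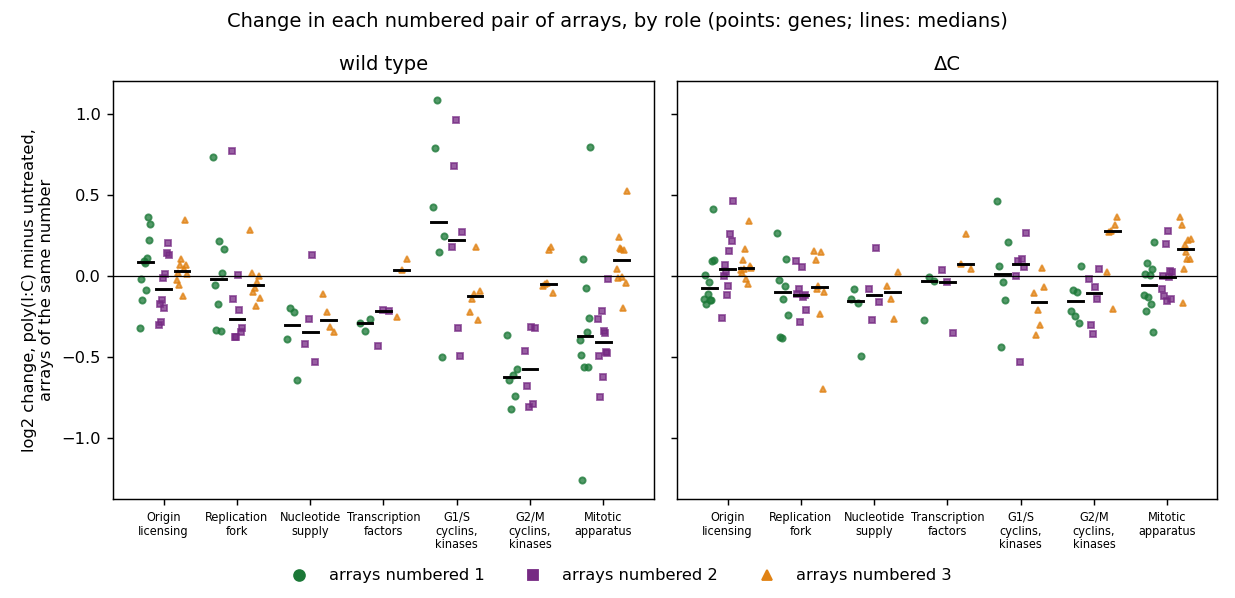
Log2 change of each gene with poly(I:C) in each numbered pair of arrays (vertical axis), by role, in wild-type and ΔC cells, with black lines for medians. In wild type the G2/M medians of pairs 1 and 2 are at -0.62 and -0.57 and that of pair 3 is at -0.05.

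Without the 4 arrays numbered 3, the wild-type response called 3 members higher and 15 lower, against 13.0% and 21.1% of all genes, with 2 arrays per group. Mcm10 (0.75), Ccnd2 (0.73) and Ccne1 (1.02) rose in that fit. All 6 G2/M genes fell: Ccnb2 by 0.81, Cdc25c by 0.76, Ccnb1 by 0.66, Cdk1 by 0.46, Cdc20 by 0.45 and Ccna2 by 0.41. Of the mitotic genes 7 fell, among them Aurkb by 1.00, Bub1b by 0.59, Kif11 by 0.51 and Aurka by 0.49, and of the nucleotide genes Tk1 fell by 0.58 and Rrm1 by 0.40. No licensing gene or transcription factor was called. In ΔC the same fit called 1 member, Ccne1, against 6.52% of all genes higher and 6.62% lower. Leaving out untreated wild-type array 3 alone gave 6 members lower, against 7.37% of all genes, and leaving out treated wild-type array 3 alone gave 3 higher, against 7.72%. Whether pair 3 or pairs 1 and 2 show the usual response was not tested.

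The genotype counts moved with the same arrays. Without the arrays numbered 3, untreated ΔC cells had 3 members higher and 13 lower, against 17.8% and 18.6% of all genes, and treated ΔC cells 6 and 6, against 20.8% and 16.9%. All 4 untreated and all 5 treated calls given above were among them. Without untreated wild-type array 3 alone, 10 members were lower in untreated ΔC, against 9.78% of all genes. Without untreated wild-type array 1 or 2, or untreated ΔC array 1 or 2, 2 were lower, against 4.93% to 7.12%. Without treated wild-type array 3 or untreated ΔC array 3, 1 was higher, against 11.6% and 12.4%. After poly(I:C), 0 were higher without treated wild-type array 1 or 2 or treated ΔC array 2, against 6.80% to 8.05%, and 1 without treated wild-type array 3, against 13.0%. Fitting the replicate numbers as a block gave counts of 1 higher and 7 lower untreated, against 13.4% and 14.0% of all genes, and 5 higher and 2 lower with poly(I:C), against 14.2% and 11.6%. The wild-type response then had 1 member higher, Mcm10.

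Groups that do not overlap were counted as well. In the wild-type response 2 members were above (Orc1 and Mcm10) and 7 below (Rrm1, Rrm2, Tk1, E2f1, Ccna2, Cdc20 and Birc5) without overlap, against 12% and 18.6% of all genes. In ΔC these were 1 (Orc6) and 1 (Gins2), against 8.79% and 8.91%. Between genotypes 4 were above and 10 below untreated, against 17.6% and 19.6%. With poly(I:C), 12 were above and 8 below, against 21.7% and 18.9%.

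The brakes and partners of these genes were read from lists of other cell cycle genes. In the wild-type response 5.24% of all genes were called higher and 1.53% lower. Among 10 CDK inhibitors and pocket proteins, 1 rose and 1 fell in wild type. Cdkn1a, which encodes the CDK inhibitor p21, was at -0.44, -0.90 and 0.16 untreated and 1.58, 1.66 and 0.76 treated, and rose by 1.73 ± 0.32 (3.31-fold, adjusted p = 0.0101 in limma). In ΔC it went from -0.50, 0.05 and 0.03 to 0.80, 1.34 and 0.90 without overlap and was not called. Cdkn2c fell by 0.69 ± 0.17 (adjusted p = 0.0385). Of 6 other G1 genes 1 rose, Myc, from 2.00, 2.16 and 3.02 to 4.72, 4.66 and 3.92 (4.12-fold, adjusted p = 0.0044). Of 40 other mitotic genes Pttg1, which encodes securin, rose by 0.84 ± 0.22 (adjusted p = 0.0471) and Ccnf fell by 0.58 ± 0.15 (adjusted p = 0.0474). None of 35 other replication genes, 13 E2F, DP and MuvB genes or 12 checkpoint and repair genes was called, and in ΔC none of these 6 lists had a called gene. Without a call, the largest rise in ΔC was 1.15 among the inhibitors and pocket proteins and 1.48 among the other G1 genes. No gene of these 6 lists was called for the difference between the responses, against 0.00647% of all genes higher and 0.0129% lower.

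Between genotypes the largest difference in these lists was that of Cdkn1c, which encodes the CDK inhibitor p57. It was at -1.97, -2.53 and -1.68 in untreated wild-type and 2.35, 1.69 and 2.33 in untreated ΔC arrays, 18.2-fold higher in ΔC (4.19 ± 0.36, adjusted p = 4.6e-05 in limma). With poly(I:C) it was 15.9-fold higher (3.99 ± 0.36, adjusted p = 7.5e-05), and the groups do not overlap in either. The counts in these lists stand beside 10.9% of all genes higher and 10.2% lower untreated, and 11.9% and 9.04% with poly(I:C). Of the 10 inhibitors, 1 was higher and 1 lower untreated (Cdkn2b by -1.15), and 2 were higher with poly(I:C), the other being Cdkn1b, which encodes p27 (0.84 ± 0.22, adjusted p = 0.0225). Of 35 other replication genes 2 were higher and 1 lower untreated (Pola2 0.56, Clspn 0.47, Gins3 -0.37), and 1 higher and 1 lower with poly(I:C) (Pola2 0.45, Rfc3 -0.68). Of 40 other mitotic genes 1 was lower untreated (Kif20a -0.55), and 2 were higher and 1 lower with poly(I:C) (Ncapd2 0.71, Tpx2 0.58, Pttg1 -1.39). Of 13 E2F, DP and MuvB genes 1 was higher and 2 lower untreated and 1 higher treated, with Tfdp2 higher in both (0.59 and 0.66). Of 12 checkpoint and repair genes Fancd2 was higher in both (0.68 and 0.79) and Chek2 lower untreated (-0.88).

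The wild-type and ΔC responses use separate arrays, though same-numbered arrays deviated together, and can be set side by side. Across the 47 members, which are not independent, Pearson's r between the responses was 0.26, against 0.74 over all 15445 genes. The members' changes spanned -0.59 to 0.65 in wild type and -0.39 to 0.23 in ΔC. Over all genes the spans were -2.40 to 13.8 and -2.21 to 12.1. The 2 values of r rest on unlike ranges and cannot be compared directly. Of the members 34 had the same sign in both (72.3%, against 72.9% of all genes). The median SE of a member's change was 0.16, and 0 members had an unadjusted p under 0.05 in ΔC, against 1682 of all 15445 genes.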

How the data were processed

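RNA of 12 MEF samples was measured on 1-colour Agilent arrays, 3 per group. Per the labels' protocols, RNA came from the supernatant of cells lysed with NP40. Per the file headers, Feature Extraction 10.7.3.1 gave the deposited intensity of each spot, background-subtracted and spatially detrended and not scaled between arrays, with flags. The authors also deposited log2 values per probe. Per the submitters' processing notes they used limma. The column of treated ΔC array 1 matched untreated wild-type array 1 better than its own, and was left out of that alternative.

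Here log2 intensities were averaged per probe without outlier spots (91 to 163 per array), and each array's 75th percentile was subtracted. Of 55681 probes, 27235 were named through RefSeq accessions. Probes well above background on all 3 arrays of a group were kept, and the brightest stood for its gene (15445 genes). Of the members 39 had 1 probe, 5 had 2 and 3 had 3. limma 3.58.1 in R 4.3.3, run first on simulated data, fitted 1 mean per group, two-sided, with 8 residual and 2.19 prior degrees of freedom. Errors are SEs.

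Same-numbered arrays of compared groups deviated together (r 0.115 to 0.651 over 12 pairs, other pairs -0.579 to 0.266), and the 2 ranges overlap. Untreated wild-type array 2 against treated wild-type array 1 gave 0.183, above 0.135 for the wild-type arrays numbered 1. Numbers were taken to pair arrays in the numbered pairs and the replicate block only. The main fit and its adjusted p-values did not use them. The labels state 3 independent experiments and nothing more, so p-values measure the spread between these samples, and the number of arrays limits precision. Members, lists and alternatives were chosen with earlier results of these data known. Named per role are the called members, or the largest change where none was called. Further members that were not called were described as well, among them Mcm3 as the steadiest by SD, Ccnd1, Tyms and Mki67. From the other lists up to 2 called rises and 2 called falls were named. Alternatives were normexp (offset 50, on the median signal, as the files hold no mean signal), median or quantile scaling, no filter, mean of probes, blocks, only the groups compared, the authors' table and arrays left out.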

Additional observations from a re-analysis of the deposited data

Results flagged for a closer look

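Of the 47 members, 2 had a log2 change with poly(I:C) below 0 in every numbered pair of wild-type arrays and above 0 in every numbered pair of ΔC arrays. The share of all genes that meet this rule was not counted, so the 2 cannot be set against a background. For Cdc20 the changes were -0.57, -0.32 and -0.10 in the wild-type pairs and 0.06, 0.04 and 0.36 in the ΔC pairs, and the difference between the responses was 0.49 ± 0.20 (adjusted p = 0.835 in limma). For Ttk the changes were -0.07, -0.34 and -0.00 in the wild-type pairs and 0.01, 0.28 and 0.15 in the ΔC pairs, and the difference was 0.28 ± 0.19 (adjusted p = 0.987 in limma). Ttk met the rule with values near 0, at -0.003 in wild-type pair 3 and 0.009 in ΔC pair 1. Neither difference passed the test.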

How the results depend on the processing

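The counts of called members in both responses and in their difference were 0 under normexp, median and quantile scaling, no filter, mean of probes, slide and scan day blocks, the groups compared alone (where the difference could not be fitted) and the authors' table. Untreated, ΔC had 0 members higher and 4 lower than wild type. Higher became 1 with normexp, quantile scaling, the groups compared alone and the replicate block, and 3 without the 4 arrays numbered 3. Lower became 1 with median scaling and the slide block, 2 with quantile scaling, no filter, the scan day block, the groups compared alone and the authors' table, 7 with the replicate block and 13 without the arrays numbered 3. With poly(I:C), 3 were higher and 2 lower. Higher became 0 with median scaling and both batch blocks, 1 with no filter, 2 with the authors' table, 4 with quantile scaling and the groups compared alone, 5 with the replicate block and 6 without the arrays numbered 3. Lower became 1 with median scaling, the slide block and the authors' table, 3 with the scan day block and 6 without the arrays numbered 3. Without those arrays the wild-type response had 3 higher and 15 lower, and the ΔC response and the difference 1 lower each. The replicate block gave 1 higher in the wild-type response. Leaving out 1 array at a time gave 0 to 3 higher and 0 to 6 lower in the wild-type response, 0 to 1 and 2 to 10 between untreated genotypes, 0 to 4 and 2 to 2 with poly(I:C), and 0 in the ΔC response and the difference. The replicate block changed no call but those given with the results. Over 23 settings no called member reversed. Ccnd2 kept both calls, Rrm2 lost its call in 2 settings untreated and 3 treated, Cdk2 in 6, Birc5, Rrm1 and E2f2 in 12 each and Aurka in 18. Median scaling moved the median of all genes from 0.01 to -0.14 between treated genotypes, from -0.05 to -0.19 in the ΔC response and from 0.07 to -0.14 for the difference, and the members' medians became -0.13, -0.17 and -0.12. The causes were not tested. With 3 arrays per group the median SE of a member's log2 change was 0.16.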
